A study of Mus musculus with 36 samples.

Results

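Binding of SIN3A was compared with binding of MBD3 in mouse embryonic stem cells (ESCs) through the peaks that chromatin immunoprecipitation and sequencing (ChIP-seq) gave for each protein. An MBD3 site was a peak of MBD3 replicate 1 that overlapped a peak of MBD3 replicate 2 by at least 1 bp, which held for 1508 of 2344 peaks (64.3%, 95% exact interval 62.4 to 66.3). A SIN3A site was a peak of the SIN3A list made with spike-in chromatin that overlapped a peak of the SIN3A list made without it, which held for 8843 of 11422 peaks (77.4%, 76.6 to 78.2). Of the 1508 MBD3 sites, 404 overlapped a SIN3A site and 1104 did not. All 9 peak lists used here held 104813 peaks.

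The series has 36 ChIP-seq samples of ESCs and of neural progenitor cells (NPCs) derived from them, and 9 of these, each with a peak list, were used. MBD3, CHD4 and SIN3A were precipitated with antibodies to the endogenous proteins from wild-type R1 ESCs, a mouse line grown in serum and LIF with 2i, a pair of kinase inhibitors. The NPC lists of MBD3 and CHD4 come from wild-type progenitors made from R1 ESCs and kept in NPC medium, with 1 sample each, and the ZFP296 list comes from a GFP antibody in ESCs. These are labelled as R1 cells with ZFP296 on a bacterial artificial chromosome (BAC), while the study's methods place the tagged construct in KH2 cells. The study describes the MBD3 samples as biological replicates, while the labels only number them. The titles of the 2 SIN3A samples carry no replicate numbers, although the names of their deposited lists number them 1 and 2. The SIN3A lists were also called at different thresholds, 0.0001 without and 0.001 with spike-in, so that preparation, spike-in and threshold cannot be told apart. The names of all peaks of CHD4 replicate 2 refer to a Zfp219 BAC, and the list was used as labelled, as wild type.

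MBD3 is the methyl-CpG-binding domain subunit that holds together the nucleosome remodeling and deacetylase (NuRD) complex, in which CHD4 is the ATP-dependent remodeler and HDAC1 and HDAC2 remove acetyl groups from histones. SIN3A is the scaffold of another deacetylase complex, which shares HDAC1, HDAC2, RBBP4 and RBBP7 with NuRD but has no remodeler and is recruited to promoters by sequence-specific repressors and by readers of promoter histone marks. ZFP296 is a zinc finger protein expressed in pluripotent cells. CpG islands, where the dinucleotide CpG is dense, cover most promoters of widely expressed genes, while enhancers are mostly poor in CpG.

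The sequences of 7 MBD3 sites show the kinds of DNA compared. Sites within 1 kb of the transcription start site (TSS) of a protein-coding gene, measured from the peak midpoint, are called promoter sites, and those farther away distal sites. Each peak carries a value, the authors' −log10 significance, which was compared within a list only. The exception is an alternative run that kept peaks with values of at least 10 in every list. For the site with the highest value in MBD3 replicate 1 in each of the 4 classes (promoter or distal, with or without SIN3A), and for sites at the pluripotency genes Pou5f1, Esrrb and Tcfcp2l1 chosen after their values were seen, the central 200 bp are given from mm9 (NCBIM37), plus strand, each named for the gene with the nearest TSS, with every CpG in capitals.
Ezh2 promoter, with SIN3A, chr6:47544348-47544547: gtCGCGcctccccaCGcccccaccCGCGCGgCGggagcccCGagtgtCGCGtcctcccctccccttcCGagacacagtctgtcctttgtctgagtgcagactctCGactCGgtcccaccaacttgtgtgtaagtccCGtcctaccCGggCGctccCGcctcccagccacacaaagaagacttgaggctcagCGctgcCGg
Pou5f1 promoter, with SIN3A, chr17:35642792-35642991: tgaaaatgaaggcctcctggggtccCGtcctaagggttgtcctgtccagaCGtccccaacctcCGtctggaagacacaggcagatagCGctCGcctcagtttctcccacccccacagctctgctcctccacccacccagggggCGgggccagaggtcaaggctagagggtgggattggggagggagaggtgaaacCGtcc
Dazap1 promoter, without SIN3A, chr10:79727275-79727474: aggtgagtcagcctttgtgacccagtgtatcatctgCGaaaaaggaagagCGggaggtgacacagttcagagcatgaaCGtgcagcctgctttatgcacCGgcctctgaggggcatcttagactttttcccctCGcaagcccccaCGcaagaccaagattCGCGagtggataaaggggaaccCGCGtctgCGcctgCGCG
2610019F03Rik distal, with SIN3A, chr8:14014850-14015049: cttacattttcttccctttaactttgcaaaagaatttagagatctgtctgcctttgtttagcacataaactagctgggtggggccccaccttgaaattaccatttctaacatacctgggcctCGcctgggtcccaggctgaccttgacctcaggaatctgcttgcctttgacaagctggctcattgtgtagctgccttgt
Esrrb distal, with SIN3A, chr12:87842530-87842729: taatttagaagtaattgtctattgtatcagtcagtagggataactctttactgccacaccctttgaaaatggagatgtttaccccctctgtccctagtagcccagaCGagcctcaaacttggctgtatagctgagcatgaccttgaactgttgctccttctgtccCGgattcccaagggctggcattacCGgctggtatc
Klhl17 distal, without SIN3A, chr4:155610525-155610724: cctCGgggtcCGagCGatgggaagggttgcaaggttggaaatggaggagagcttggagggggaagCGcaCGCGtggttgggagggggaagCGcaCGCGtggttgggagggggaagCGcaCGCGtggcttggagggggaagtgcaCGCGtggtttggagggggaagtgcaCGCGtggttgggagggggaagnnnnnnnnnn
Tcfcp2l1 distal, without SIN3A, chr1:120522064-120522263: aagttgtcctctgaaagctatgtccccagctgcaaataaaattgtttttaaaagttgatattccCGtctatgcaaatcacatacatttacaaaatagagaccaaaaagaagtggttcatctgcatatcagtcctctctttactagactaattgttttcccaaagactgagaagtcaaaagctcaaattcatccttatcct

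The promoter windows held 19 CpG at Ezh2, 13 at Dazap1 and 7 at Pou5f1. Of the distal windows, those of 2610019F03Rik and Tcfcp2l1 held 1 CpG and that of Esrrb held 3, whereas the Klhl17 window is a tandem repeat with 16 CpG that runs into 10 unsequenced bases of the assembly. Both distal sites with SIN3A carried the estrogen-related receptor string TCAAGGTCA in the reverse orientation. Over all distal MBD3 sites TCAAGGTCA was in 6.34% of those with SIN3A and in 5.41% of those without. The Esrrb window also carried the KLF string GGGTGTGG in the reverse orientation, and the Dazap1 window carried the AP-1 string TGANTCA. The Pou5f1 promoter window carried a GC box (GGGCGG), and the Tcfcp2l1 window carried the POU5F1 octamer ATGCAAAT.

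SIN3A was found at a minority of MBD3 sites, and MBD3 was rare among SIN3A sites. A SIN3A site overlapped 26.8% of MBD3 sites (24.6 to 29.1, 404 of 1508), and an MBD3 site overlapped 4.61% of SIN3A sites (4.19 to 5.07, 408 of 8843). The 2 proteins occupied different parts of the genome, since 159 of 1507 MBD3 sites on chromosomes 1 to 19, X and Y were promoter sites (10.6%) against 7207 of 8836 SIN3A sites (81.6%). Most sites that carried both were nevertheless distal: 331 of 403 (82.1%, 78 to 85.8) lay beyond 1 kb of a TSS. The size of this split depended on the MBD3 list. On the same chromosomes, MBD3 replicate 1 had 497 promoter and 1845 distal peaks, of which 210 and 415 carried SIN3A. Replicate 2 had 736 and 6799, of which 272 and 558 carried it. Intervals and tests over sites cover counting error only, because sites of 1 list share their libraries and are not replicates of a condition.

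Promoter MBD3 sites carried SIN3A more often than distal ones. The share was 45.3% at promoters (37.4 to 53.4, 72 of 159) and 24.6% at distal sites (22.3 to 26.9, 331 of 1348), an odds ratio of 2.54 (1.79 to 3.6, two-sided Fisher's exact test, adjusted p = 3.60e-07 over 9 tests). Seen from SIN3A, the order was the reverse: MBD3 lay at 77 of 7207 promoter SIN3A sites (1.07%, 0.844 to 1.33) and at 330 of 1629 distal SIN3A sites (20.3%, 18.3 to 22.3). The order of promoter above distal held for each of the 9 pairings of MBD3 and SIN3A lists, but the levels did not. Over these pairings the share ranged from 37% to 70.4% at promoters and from 8.21% to 46.5% at distal sites, highest with the longer SIN3A list and lowest for all 7551 peaks of MBD3 replicate 2. With all peaks of replicate 2 as MBD3 sites the odds ratio was 6.55, and with all of replicate 1 it was 2.52.

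**Figure D1:**
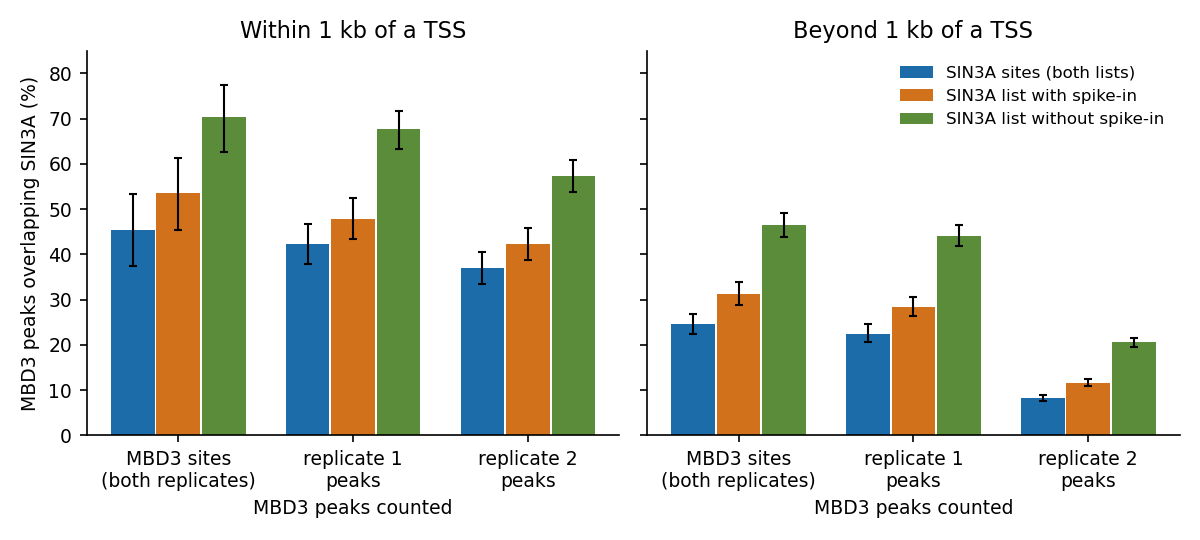
Share of MBD3 peaks that overlapped SIN3A (percent, y axis) for 3 sets of MBD3 peaks (x axis) and 3 sets of SIN3A peaks (colours), at promoters and at distal sites, where error bars are 95% exact intervals for counting error. Promoter shares lie between 37% and 70.4% and distal shares between 8.21% and 46.5%, and each promoter bar is above the distal bar of the same lists.

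The class without SIN3A was not free of SIN3A peaks. Of the 1017 distal MBD3 sites without a SIN3A site, 632 (62.1%) had no peak in either SIN3A list, 295 had a peak only in the list without spike-in, 86 only in the list with spike-in and 4 in both lists at different places. Of the 87 promoter sites without a SIN3A site, 35 (40.2%) had no peak in either list and 39 had one only in the list without spike-in. At the promoters of Nr5a2, an orphan nuclear receptor of pluripotent cells, and Sall4, a zinc finger factor of pluripotent cells, MBD3 sites met a SIN3A peak of value 10.7 and of value 15.4 in the list without spike-in and none in the other.

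The share of MBD3 sites with SIN3A was lower farther from the TSS, and the share of SIN3A sites with MBD3 was higher. SIN3A was at 45.3% of MBD3 sites within 1 kb, at 35% (28.7 to 41.7) from 1 to 5 kb, at 25.1% (21.1 to 29.4) from 5 to 20 kb, at 22.7% (19.1 to 26.5) from 20 to 100 kb and at 15.4% (10.3 to 21.7) beyond 100 kb. Neighbouring intervals overlapped, those of the first and the last distance did not, and the trend itself was not tested. MBD3 was at 12.8% (10.3 to 15.7) of SIN3A sites from 1 to 5 kb and at 31.3% (21.6 to 42.4) of the 83 SIN3A sites beyond 100 kb.

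**Figure D2:**
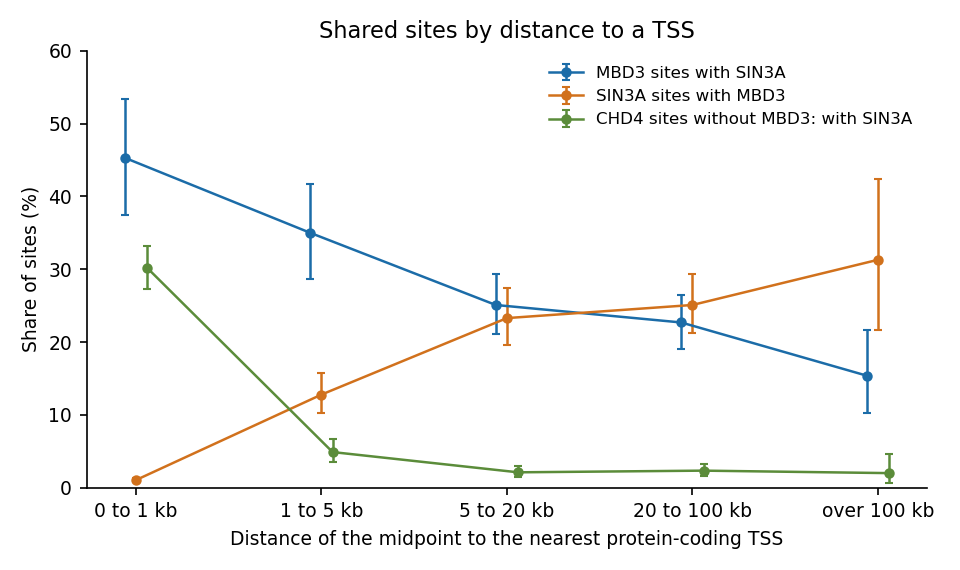
Share of sites (percent, y axis) by distance of the site midpoint to the nearest protein-coding TSS (x axis), with 95% exact intervals for counting error. MBD3 sites with SIN3A go from 45.3% to 15.4%, SIN3A sites with MBD3 from 1.07% to 31.3%, and CHD4 sites without MBD3 that carry SIN3A drop from 30.2% to 4.91% past 1 kb.

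CHD4 sites with no MBD3 peak gave a background for SIN3A at MBD3 sites. CHD4 sites were defined from the 2 CHD4 lists in the same way, and 5044 of them overlapped no peak of either MBD3 list. SIN3A was at 30.2% of these at promoters (291 of 963) and at 2.75% of the distal ones (112 of 4070). MBD3 sites exceeded both levels, with an odds ratio of 1.91 at promoters (1.34 to 2.72, Fisher's exact test, adjusted p = 0.000433) and of 11.5 at distal sites (9.14 to 14.5, Fisher's exact test, adjusted p = 4.85e-118). The distal odds ratio was 3.16 with all peaks of MBD3 replicate 2 as MBD3 sites. The comparison was repeated, after the values were seen, within tertiles of CHD4 sites by value in CHD4 replicate 1 (3 groups of equal size). From the lowest to the highest tertile, distal CHD4 sites with an MBD3 site carried SIN3A at 18.7%, 19.6% and 31.5%, against 3.81%, 1.91% and 2.44% of those with no MBD3 peak. At promoters the shares were 48.1% against 34.6% in the lowest tertile (odds ratio 1.75, 0.736 to 4.15, exact p = 0.211). They were 48.7% against 31.3% in the middle tertile (odds ratio 2.08, 1 to 4.32, exact p = 0.0457) and 58.2% against 22.2% in the highest. The p-values of these tertiles were not adjusted.

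Where both proteins were called, their peaks had close midpoints, which the required overlap fixes in part. At the 331 distal sites with SIN3A the midpoints of the MBD3 peak and the nearest SIN3A site were a median of 63 bp apart (quartiles 32 and 117.5), and 230 (69.5%) were within 100 bp. At the 72 promoter sites with SIN3A the median was 80.5 bp, and 40 (55.6%) were within 100 bp. No order along the gene was seen at promoters, where the nearest SIN3A midpoint lay upstream of the MBD3 midpoint at 36 sites and downstream at 36. Distal sites without SIN3A were a median of 38335 bp from the nearest SIN3A midpoint, and 312 of 1017 (30.7%) were more than 100 kb from it, whereas 32 of 87 promoter sites without SIN3A (36.8%) had one within 1 kb that did not overlap.

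MBD3 peaks with SIN3A had the higher values and were wider. In MBD3 replicate 1 the median value was 10.2 at distal sites with SIN3A and 8.51 at those without, and at promoters it was 9.28 and 7.36. In replicate 2 the differences were smaller, with medians of 12.1 and 11.5 at distal sites and of 11 and 10.6 at promoters. Median widths were 317 and 257 bp at distal sites and 287 and 227 bp at promoters. Across tertiles of MBD3 sites by value in replicate 1, the distal share with SIN3A was 15.5%, 24.6% and 33.3%, and across tertiles by width it was 17.1%, 21.7% and 34.5%. The part of width and of peak strength in the overlap was not tested. The distal share was 25.8% when midpoints within 500 bp were counted in place of overlaps.

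ZFP296 was more frequent at distal MBD3 sites with SIN3A. A GFP-ZFP296 peak was at 61.3% of distal MBD3 sites with SIN3A (55.8 to 66.6, 203 of 331) and at 38.5% of those without (35.5 to 41.6, 392 of 1017), an odds ratio of 2.53 (1.94 to 3.29, Fisher's exact test, adjusted p = 2.86e-12). This passed in each tertile of MBD3 sites by value, and the odds ratio was 4.41 with all peaks of MBD3 replicate 2. At promoters the shares were 31.9% (23 of 72) and 17.2% (15 of 87), with an odds ratio of 2.24 (1.01 to 5.12, Fisher's exact test, adjusted p = 0.0596) that turned to 0.94 when midpoints within 500 bp stood for overlap and was 1.56 with all peaks of MBD3 replicate 2 (adjusted exact p = 0.0341). With the SIN3A list without spike-in alone the promoter odds ratio was 3.49 (adjusted exact p = 0.0205). The distal odds ratio was 1.12 times the promoter odds ratio, with a Wald interval from 0.511 to 2.47, so that the effects were not shown to differ.

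CHD4 was at most MBD3 sites of every class when sites were those found in both MBD3 replicates. It was at 91.8% of distal sites with SIN3A (304 of 331) and 83.3% of distal sites without (847 of 1017), an odds ratio of 2.26 (1.46 to 3.6, Fisher's exact test, adjusted p = 0.000167). Within tertiles by MBD3 value the odds ratios were 1.27, 2.03 and 3.66, and none passed, whereas all peaks of MBD3 replicate 2 gave 6.97. At promoters CHD4 was at 79.2% and 74.7% (odds ratio 1.28, 0.574 to 2.94, Fisher's exact test, adjusted p = 0.646), and the distal odds ratio was 1.76 times the promoter one (Wald interval 0.744 to 4.15). With all peaks of MBD3 replicate 2 the promoter odds ratio was 1.83 and passed (Fisher's exact test, adjusted p = 0.000182). In the single lists CHD4 was at a minority of promoter peaks with SIN3A, 92 of 210 in MBD3 replicate 1 and 125 of 272 in replicate 2. Sites with both CHD4 and ZFP296 made up 56.5% of distal MBD3 sites with SIN3A (187 of 331) and 33.7% of those without (343 of 1017), and sites with neither made up 3.32% and 11.9%.

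Few distal MBD3 sites were still called in NPCs, with or without SIN3A. An NPC MBD3 peak was at 7 of 331 distal sites with SIN3A (2.11%) and at 19 of 1017 without (1.87%), an odds ratio of 1.13 (0.399 to 2.85, Fisher's exact test, adjusted p = 0.818). At promoters it was at 22 of 72 (30.6%) and at 18 of 87 (20.7%), an odds ratio of 1.68 (0.771 to 3.71, Fisher's exact test, adjusted p = 0.256). Each interval includes both a lower and a higher share with SIN3A. With all peaks of MBD3 replicate 2 the odds ratios were 3.6 (Fisher's exact test, adjusted p = 6.39e-05) at distal sites and 2.43 (adjusted exact p = 2.39e-05) at promoters, and with all of replicate 1 the promoter value was 1.75 (adjusted exact p = 0.0451). An NPC CHD4 peak was at 7.85% and 5.11% of the distal classes and at 27.8% and 24.1% of the promoter classes. SIN3A itself has no NPC list among those used.

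**Figure D3:**
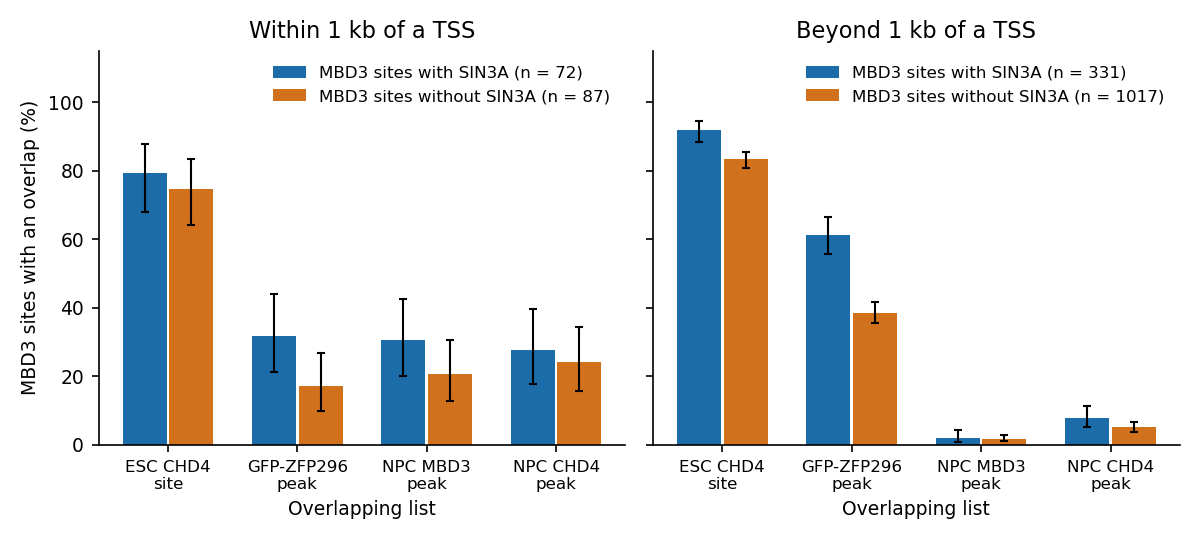
Share of MBD3 sites (percent, y axis) that overlapped an ESC CHD4 site, a GFP-ZFP296 peak, an NPC MBD3 peak or an NPC CHD4 peak (x axis), with and without SIN3A, where error bars are 95% exact intervals for counting error. The ZFP296 bars at distal sites, 61.3% and 38.5%, are the pair farthest apart.

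Distal SIN3A sites differed in base composition by whether MBD3 was there. In the central 200 bp, distal SIN3A sites without MBD3 had a median of 9 CpG (quartiles 4 and 18) and 59.5% G and C, and those with MBD3 had 3 CpG (1 and 4) and 52%. Distal MBD3 sites had a median of 3 CpG with SIN3A and 2 without, and the regions 10 kb downstream of them had 2. For these regions, here and below, downstream means along the plus strand, whatever the strand of the gene. Promoter MBD3 sites had a median of 16.5 CpG with SIN3A (5 and 22.2) and 7 without (3 and 21), below the 21 CpG of promoter SIN3A sites without MBD3. These medians describe the sites and were not tested. Distal SIN3A sites with and without MBD3 also differed in distance to a TSS. MBD3 was at 12.8% of SIN3A sites from 1 to 5 kb and at 31.3% of those beyond 100 kb. The part of distance in the base composition was not tested.

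**Figure D4:**
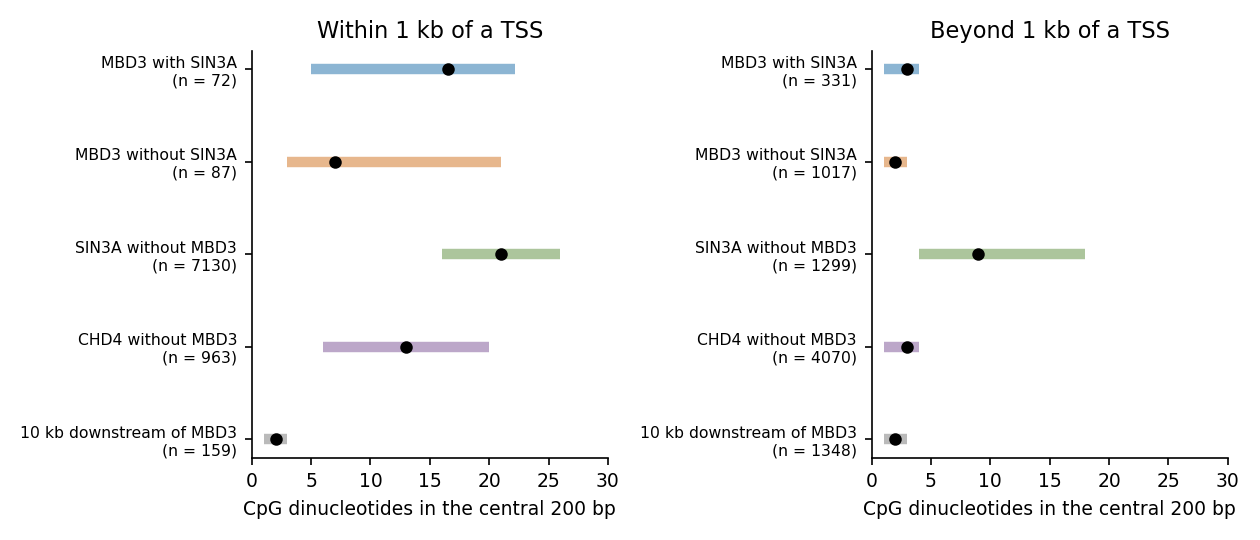
Number of CpG dinucleotides in the central 200 bp of each site (x axis) by class of site (y axis), with the median as a point and the quartiles as a bar. Distal SIN3A sites without MBD3 reach a median of 9, and the other distal classes lie at 2 or 3.

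A search for 12 strings, on either strand of the central 200 bp, found 1 whose share differed between MBD3 sites with and without SIN3A. The GC box GGGCGG, the core of SP and KLF factor sites, was in 16.6% of distal MBD3 sites with SIN3A (55 of 331) and in 8.65% of those without (88 of 1017), an odds ratio of 2.1 (1.43 to 3.06, Fisher's exact test, adjusted p = 0.00207 over 24 tests). The call was lost with the spike-in SIN3A list alone (odds ratio 1.58, Fisher's exact test, adjusted p = 0.104) and without chromosomes 3, 6, 8, 14 and 19 (odds ratio 1.93, Fisher's exact test, adjusted p = 0.0809). Distal MBD3 sites had a median of 50.5% G and C with SIN3A and 47.5% without, and the part of base composition was not tested. The GC box was in 4.01% of regions 10 kb downstream of distal sites, in 37.1% of distal SIN3A sites without MBD3 and in 40% of windows centred on all 22367 protein-coding gene starts. At promoters it was in 47.2% and 29.9% (odds ratio 2.09, 1.04 to 4.25, Fisher's exact test, adjusted p = 0.26). With all peaks of MBD3 replicate 2 the promoter odds ratio was 2.39 and passed (Fisher's exact test, adjusted p = 2.64e-07).

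Strings of pluripotency factors were present in both distal classes. The POU5F1 octamer ATGCAAAT was in 4.53% of distal sites with SIN3A and 6.49% without, the SOX2 string CCATTGT in 5.74% and 8.26%, and the ESRRB string TCAAGGTCA in 6.34% and 5.41%, where regions 10 kb downstream had 1.56%, 2.67% and 0.742%. The KLF string GGGTGTGG was in 11.5% and 7.87% (odds ratio 1.52, 0.981 to 2.32, Fisher's exact test, adjusted p = 0.338), against 1.78% downstream and 2.39% at all gene starts. None of these 4 passed the test between the classes. The ETS string CCGGAAG was in 8 of 72 promoter sites with SIN3A and in 1 of 87 without (Fisher's exact test, adjusted p = 0.138), and all gene starts had 9.36%. Of the others, the telomere unit TTAGGG was in 9.06% and 9.24% of the distal classes and 8.31% of downstream regions, the AP-1 string TGANTCA in 6.34%, 5.8% and 5.79%, and the E-box CACGTG in 1.51%, 2.26% and 3.26%. The CRE string TGACGTCA and the NRF1 half-site GCATGCGC were each in 0 of 331 distal sites with SIN3A and 3 of 1017 without, and the YY1 string AAGATGGCG was in none of either class.

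Promoters with MBD3 carried SIN3A more often than other promoters, in each tertile of genes by CpG number at the gene start. A SIN3A site lay within 1 kb of a TSS for 6388 of 22359 protein-coding genes (28.6%) and an MBD3 site for 158 (0.707%). SIN3A was at 113 of the 158 genes with MBD3 (71.5%) and at 6275 of the other 22201 (28.3%), an odds ratio of 6.37 (4.47 to 9.23, Fisher's exact test, p = 4.36e-29). These counts place both midpoints within 1 kb of a TSS of the same gene and do not require the peaks to overlap. With all peaks of MBD3 replicate 2 the odds ratio was 3.8, and with the SIN3A list without spike-in it was 9.58. With 1 TSS a gene, 129 genes had MBD3 and the odds ratio was 5.5. After the values were seen, genes were split into tertiles by the number of CpG in 1 kb around 1 start per gene. The sites were still counted at any TSS of the gene, so the CpG number at the TSS that carried them can differ. SIN3A was at 13 of 20 genes with MBD3 (65%) in the tertile with 0 to 17 CpG, where 2.62% of genes without MBD3 had it (odds ratio 68.8, 25.2 to 206, exact p = 2.82e-16). In the middle tertile it was at 34 of 50 (68%) against 22.6%, and in the tertile with 60 to 180 CpG at 66 of 88 (75%) against 58.6% (odds ratio 2.12, 1.29 to 3.62, exact p = 0.00154). The intervals of the lowest and the highest tertile do not overlap, and the difference between them was not tested.

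**Figure D5:**
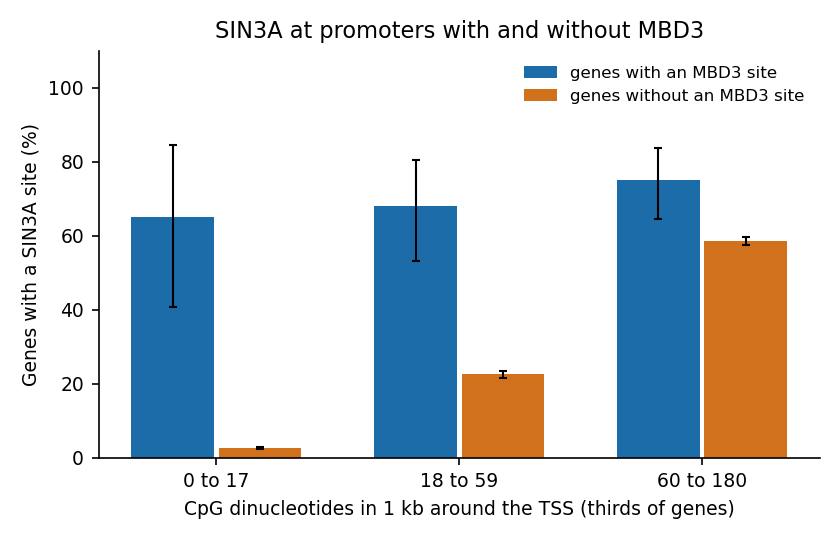
Share of protein-coding genes with a SIN3A site within 1 kb of any TSS (percent, y axis), with and without an MBD3 site there, in tertiles of genes by the number of CpG in 1 kb around 1 start per gene (x axis), where error bars are 95% exact intervals for counting error. Genes with MBD3 stay between 65% and 75%, while genes without it go from 2.62% to 58.6%.

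Of 16 listed pluripotency factors, 13 had an MBD3 site within 100 kb of a TSS (81.2%) and 10 had one with SIN3A (62.5%), against 14.7% and 5.56% of all 22359 genes. At the TSS itself SIN3A was at 14 of the 16 and MBD3 at 3, Pou5f1, Sall4 and Nr5a2, which is 87.5% and 18.8% of the list against 28.6% and 0.707% of all genes. The 38 MBD3 sites near these genes included 17 with SIN3A (44.7%, 28.6 to 61.7), 33 with CHD4 (86.8%) and 16 with ZFP296 (42.1%). Over all 1508 MBD3 sites the shares were 26.8%, 84.5% and 42%, so that those of CHD4 and ZFP296 near these genes were close to the whole. The list was chosen with earlier results of these data known, so its counts are a description.

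At Pou5f1, which encodes the core pluripotency factor OCT4, 3 of 4 MBD3 sites carried SIN3A. The promoter site at chr17:35642736-35643047, 0.091 kb upstream of the TSS, had a value of 8.03 in MBD3 replicate 1 and 14.6 in replicate 2, of 18.9 in the SIN3A list without spike-in and 6.82 in the list with it, and of 11.3 for ZFP296. A second site 0.872 kb from the TSS had SIN3A values of 16.1 and 20.7, and another 1.98 kb away had 21 and 22.1. The site 3.47 kb away had a value of 8.46 in the SIN3A list without spike-in and no peak in the other, so it counts among those without SIN3A. All 4 sites had CHD4 and ZFP296, and none had a peak in either NPC list.

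Esrrb and Klf4, transcription factors of the naive pluripotent state, carried SIN3A at most or all of their MBD3 sites. At Esrrb it was at 3 of 4, and the intronic site at chr12:87842320-87842940 had values of 7.99 and 12.7 for MBD3, 17.4 and 20.6 for SIN3A and 38.2 for ZFP296. At Klf4 all 3 sites, from 54.2 to 67.4 kb from the TSS, had SIN3A, CHD4 and ZFP296. At Klf5, by contrast, none of 4 distal sites had a SIN3A site, although their MBD3 values in replicate 1 ran from 5.36 to 18, and 1 of them met a peak of value 4.63 in the SIN3A list without spike-in. Sall4 had 0 of 5 and Nanog 1 of 4, but some of their sites without SIN3A met a peak of a single SIN3A list. At Sall4 these peaks had values of 15.4 and 9.55 in the list without spike-in. At Nanog the values were 14.4 in the list without spike-in and, at another site, 8.61 in the list with it.

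Distal sites with SIN3A were scattered over many genes. Of 906 genes that were the nearest to a distal MBD3 site within 100 kb, 271 had one with SIN3A, 28 had 2 or more and 5 had 3 or more. The 5 were Smad7, an inhibitor of TGF-beta signalling (4 of its 4 sites), Esrrb (3 of 4), Klf4 (3 of 3), Sall1, a zinc finger factor that binds NuRD (3 of 3), and Scd2, a fatty acid desaturase (3 of 3). They were picked out by this count after it was seen. Jarid2, a subunit of Polycomb repressive complex PRC2, had 6 distal sites, of which 2 had SIN3A, and Tet1, a 5-methylcytosine dioxygenase, had 3, of which 2 had it.

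Of 15 NuRD subunit genes, 6 had a SIN3A site at a TSS (Chd4, Hdac2, Mta2, Gatad2a, Rbbp4 and Cdk2ap1) and 0 an MBD3 site, and of 15 SIN3 complex genes, 12 had SIN3A, Sin3a and Sin3b among them, and 0 had MBD3. With 0.707% of all genes carrying MBD3 at a TSS, a count of 0 in 15 is near the background. SIN3A was thus at 40% and 80% of these lists, against 28.6% of all genes. None of the gene lists was matched to other genes by CpG number. Across tertiles of that number, SIN3A was at 2.62% to 58.6% of genes without MBD3. Of 8 PRC2 genes 5 had SIN3A and 1, Ezh2, had MBD3. Of 9 genes of DNA methylation and demethylation 7 had SIN3A and 2 had MBD3, of which Uhrf1, which recruits the maintenance methyltransferase, had both within 1 kb and Tet1 had MBD3 alone. The MBD3 site at Uhrf1 did not overlap a SIN3A site.

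Over all genes SIN3A was at a TSS of 28.6% and MBD3 of 0.707%. Of 12 signalling targets 5 had SIN3A at a TSS (41.7%) and 1, Spry4, had a site of each protein within 1 kb of a TSS. Of 10 MYC network genes 8 had SIN3A (80%), and Mxi1 and Mnt, both MAX-binding repressors, had MBD3 as well. The MBD3 site overlapped a SIN3A site at Mnt but not at Spry4 or Mxi1. Of 77 cytosolic ribosomal protein genes 26 had SIN3A (33.8%) and 1 had MBD3 (1.3%), both near the shares of all genes. Among genes that mark the cells, the ESC genes Pou5f1, Sox2, Nanog and Esrrb had 2 to 4 MBD3 sites within 100 kb and 0 peaks of the NPC MBD3 list. The progenitor genes Nes, Pax6 and Olig2 had 0 MBD3 sites there and 1, 0 and 0 peaks of the NPC list. As 14.7% of all genes had an MBD3 site within 100 kb, the counts of 0 at these 3 genes do not bear on the cell type.

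The promoter sites with SIN3A of the highest value in MBD3 replicate 1 lay at Ezh2, Gemin7 and Klf15. The Ezh2 site, chr6:47544183-47544713, is in an intron 0.582 kb downstream of a TSS of the methyltransferase subunit of PRC2. Its values were 55.4 and 42.7 for MBD3, 37.8 and 48.8 for CHD4, 31.8 and 13.4 for SIN3A without and with spike-in, and 48.4 for MBD3 in NPCs. The Gemin7 site, chr7:20158363-20158624, covers the start of a gene for a subunit of the SMN complex and had values of 24.9 and 49.4 for MBD3, 29.2 and 10.3 for SIN3A and 30.9 for ZFP296, with no NPC peak. The Klf15 site, chr6:90412705-90413261, in an intron 0.412 kb downstream of the TSS of a zinc finger factor, had 20 and 21.7 for MBD3, 35 and 6.78 for SIN3A and 18.8 in NPCs.

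The promoter sites without SIN3A of the highest value lay at Dazap1, Itpk1 and Camta1, and all 3 had MBD3 and CHD4 peaks in NPCs. The Dazap1 site, chr10:79727196-79727554, 0.355 kb upstream of the nearest annotated TSS of an RNA-binding protein, had values of 30.9 and 24.5 for MBD3 in ESCs and 24.3 in NPCs, with no peak in either SIN3A list. The Itpk1 site, chr12:103943314-103943605, 0.38 kb upstream of an inositol phosphate kinase, had 24.9 and 59.2, and met a SIN3A peak of value 4.51 in the list with spike-in only. The Camta1 site, chr4:150482116-150482532, in an exon of a calmodulin-binding factor, had 23.9 and 51.9 and no SIN3A peak.

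Of the distal sites of the highest value in MBD3 replicate 1, those with SIN3A were a 1201 bp peak 39.9 kb upstream of 2610019F03Rik (chr8:14014350-14015550), with values of 44.7 and 18.4 for MBD3 and 13.7 and 10 for SIN3A, an intronic site of Chd9, a chromodomain helicase (chr8:93375497-93375824), with 38.9 and 10.8 for MBD3 and 14.2 and 5.29 for SIN3A, and a site 4.03 kb from the TSS of Naprt1, an enzyme of NAD synthesis (chr15:75720664-75721096), with 35.8 and 15.5 for MBD3 and 32.6 and 13.6 for SIN3A. None of these 3 had an NPC peak. The first of those without SIN3A was the Klhl17 repeat (chr4:155610457-155610793), with 37.2 and 73.1 for MBD3. It overlapped no SIN3A peak, but the nearest SIN3A site midpoint was 569 bp away. The others were a site 18 kb from Pla2g10, a secreted phospholipase (chr16:13748914-13749213), and a site 2.36 kb upstream of Tcfcp2l1, the annotation's name for Tfcp2l1, a factor of naive pluripotency (chr1:120521984-120522343). The last 2 each met a peak of the SIN3A list without spike-in, of values 13.7 and 13.2, so that 1 of these 3 overlapped no peak of either SIN3A list.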

How the data were processed

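Each sample's DNA was sequenced by the authors, mapped to mm9 with BWA, and reduced to uniquely mapped, non-duplicate reads. Peaks were called by the authors in each sample separately with MACS2 2.0 against input, and the submitters' processing notes also name SAMtools. The deposited value of a peak is on a −log10 scale, and the sources used here do not say if it is a p-value or an adjusted one. Peak names mention scaling to an equal read number in all but the SIN3A lists, and with no read counts per peak the depth at a site is unknown. Groups came from the sample titles. The members, gene lists and strings were chosen with earlier results of these data known.

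Lists were joined by overlaps of at least 1 bp. Distances ran from peak midpoints to 46015 protein-coding transcript starts of GENCODE vM1, the same build as the peaks (of 29 chromosomes and contigs in the lists, 0 exceeded its length in the reference and 7 could not be checked). Shares carry 95% exact (Clopper-Pearson) intervals. Site classes were compared by two-sided Fisher's exact tests with Benjamini-Hochberg adjustment over 9 tests, and over 24 for the strings, with a threshold of 0.05. Ratios of odds ratios were compared by a Wald test. Tests were checked on simulated data. Named sites were the 3 of highest value in MBD3 replicate 1 in each of 4 classes, and gene lists were matched by symbol, with Tfcp2l1 matched through RefSeq synonyms. The tools were Python 3.11.15, scipy 1.17.1, numpy 2.4.6, pandas 2.3.3, samtools 1.23.1, pyfaidx 0.9.0.4 and matplotlib 3.10.9. Peak lists of 9 samples were used, and the other samples were not analysed here.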

Additional observations from a re-analysis of the deposited data

How the results depend on the processing

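No paired analysis was possible because peak overlaps have no fit to block. The depth behind the SIN3A lists is unknown. The higher share of SIN3A at promoters than at distal MBD3 sites, its excess over CHD4 sites without MBD3 and over other promoters, and the link of ZFP296 at distal sites kept their direction under every alternative run. They also kept their side of the threshold, except the promoter excess over CHD4 sites in the lowest tertile of CHD4 value (odds ratio 1.75). The p-values within tertiles of CHD4 value and of CpG number were not adjusted. At promoters the middle tertile of CHD4 value was only just below the threshold (odds ratio 2.08, 1 to 4.32, Fisher's exact test, unadjusted p = 0.0457). The cause of the changes below was not tested.

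The share of all, promoter and distal MBD3 sites with SIN3A moved to 49.1%, 70.4% and 46.5% with the SIN3A list without spike-in alone, to 33.6%, 53.5% and 31.2% with the spike-in list alone, to 18.4%, 30.8% and 16.9% when 1 peak had to cover the larger part of the MBD3 peak, to 18.7%, 34.2% and 16.9% with values of at least 10, and with midpoints within 500 bp to 29.2% and 57.2% for all and promoter sites. For single MBD3 replicates these shares ranged from 11% to 26.7%, from 37% to 42.3% and from 8.21% to 22.5%.

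The odds ratio of CHD4 at distal sites missed the threshold with values of at least 10 (2.05) and in each tertile by MBD3 value (1.27, 2.03 and 3.66). At promoters it turned to 0.813 with midpoints within 500 bp, 0.868 with a TSS distance of 2 kb and 0.423 in the lowest tertile by value, and ranged from 1.18 to 1.83 for single MBD3 replicates. That of ZFP296 at promoters passed with the SIN3A list without spike-in (3.49), a TSS distance of 500 bp (3.3), the distance from the peak edge (2.26) and, chosen after seeing the data, only sites with no peak in either SIN3A list as the class without SIN3A (3.6), turned to 0.94 with midpoints within 500 bp, and ranged from 1.54 to 1.56 for single replicates. That of NPC MBD3 at promoters passed with midpoints within 500 bp (2.93), turned to 0.972 with the SIN3A list without spike-in, 0.873 with the larger part covered, 0.795 with values of at least 10 and 0.755 in the highest tertile by value, and ranged from 1.75 to 2.43 for single replicates. At distal sites it turned to 0.979 with the distance from the peak edge, 0.861 without chromosomes 3, 6, 8, 14 and 19 and 0.603 in the lowest tertile by value, and ranged from 1.98 to 3.6 for single replicates.

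The number of strings that passed became 1 at promoters with a TSS distance of 2 kb, from 0, and 0 at distal sites with the spike-in list alone and without the 5 chromosomes, from 1. For single replicates it ranged from 0 to 1 at promoters. The difference in median MBD3 value became 0 at promoters and 2.46 at distal sites with values of at least 10, and 0.729 at distal sites with the larger part covered. For single replicates it ranged from 0.724 to 1.22 at promoters.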

Other observations

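The share of distal MBD3 sites with SIN3A varied between chromosomes, from 11.4% on chromosome 16 (4 of 35 sites) and 11.6% on chromosome 1 (11 of 95) to 33.7% on chromosome 8 (35 of 104) and 34.3% on chromosome 4 (37 of 108), among chromosomes with at least 35 such sites. These are counts in the same lists and were not tested.

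Another MBD3 site lay within 10 kb of 30.2% of distal sites with SIN3A (25.3 to 35.5, 100 of 331) and of 25.2% of those without (22.5 to 28, 256 of 1017), so that the intervals overlapped. Midpoints were in introns of protein-coding genes at 42% of distal sites with SIN3A (36.6 to 47.5) and 35.6% of those without (32.6 to 38.6), and in exons at 3.63% and 1.77%. Distal sites with SIN3A were a median of 15334 bp from the nearest TSS and those without 22193 bp.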
